A study of Arabidopsis thaliana with 6 samples.

Results

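The genes described here encode defensin-like (DEFL) and low-molecular-weight cysteine-rich (LCR) peptides of Arabidopsis thaliana. They are the genes whose deposited description holds the words defensin-like or low-molecular-weight cysteine-rich and that had a count in either genotype. The words matched 202 of the 31608 genes listed, 143 of which had a count, and the other 59 were at 0 in both genotypes. In all, 25434 genes had a count. The genes compared came from siliques of the mutant mee45-1 and of the wild-type accession Col-0, both collected 4 days after pollination, with 3 libraries of polyA RNA per genotype. The labels give no treatment and do not describe the mutation further, and they name the tissue both silique and seed. A silique is the Arabidopsis fruit, so a sample of it holds fruit wall, seed coat, endosperm and embryo. The submitters' design speaks of 3 biological repeats and the extraction protocol of collection in duplicate, and n is taken here as 3. Whether the plants were grown separately is not said. A p-value therefore sets the difference between the genotypes against a spread between libraries that may be only technical.

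Defensins are small secreted proteins held together by disulfide bonds between cysteines. Their typical fold, an alpha helix pinned to a beta sheet, needs a cysteine pair separated by 3 residues and a later pair separated by 1 residue. Plants carry a large family of such peptides. Some are antifungal proteins of leaves and seeds, some inhibit digestive enzymes such as trypsin, and many are made in pollen, the pistil and the female gametophyte. In Arabidopsis the LURE peptides, also defensin-like, guide the pollen tube to the ovule, and the transcription factor MYB98 switches on many defensin-like genes in the synergid cells beside the egg. MEE45, the gene mutated here, encodes a protein of the B3 family of DNA-binding proteins, and its own transcript had 1 count per library in mee45 and 20.7 in Col-0 (log2 fold change -4.29, adjusted p 4.34e-06 in the authors' deposited table).

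The coding sequence shows the feature that defines the family, and it is printed here for some of the called members. They include ATTI7, with the largest fold difference of them, and AT1G61688, with the lowest adjusted p in the authors' deposited table. PDF2.3, a close relative of PDF2.2 that was not called, is printed as well. Each is the second of 2 coding exons, written 5′ to 3′ on the coding strand, with the codons for cysteine in capitals. The sequences are from RefSeq's annotation of TAIR10.1, at chr2:528716-528885 for PDF2.2, chr2:538673-538842 for PDF2.1 and chr2:540238-540407 for PDF2.3, all on the plus strand, chr1:17455702-17455940 on the minus strand for ATTI7, chr2:18070333-18070523 on the plus strand for ATTI3, and chr1:22780793-22780983 on the minus strand for AT1G61688. The first 3 are plant defensins, ATTI7 and ATTI3 are trypsin inhibitors, and AT1G61688 is DEFL 106.
PDF2.2: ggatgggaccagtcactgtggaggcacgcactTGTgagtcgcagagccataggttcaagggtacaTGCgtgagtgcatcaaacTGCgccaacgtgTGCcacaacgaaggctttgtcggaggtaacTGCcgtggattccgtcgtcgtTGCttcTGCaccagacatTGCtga
PDF2.1: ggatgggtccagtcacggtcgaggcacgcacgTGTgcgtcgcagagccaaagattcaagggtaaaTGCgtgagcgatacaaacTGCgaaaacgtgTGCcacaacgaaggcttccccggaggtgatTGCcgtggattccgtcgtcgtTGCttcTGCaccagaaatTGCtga
PDF2.3: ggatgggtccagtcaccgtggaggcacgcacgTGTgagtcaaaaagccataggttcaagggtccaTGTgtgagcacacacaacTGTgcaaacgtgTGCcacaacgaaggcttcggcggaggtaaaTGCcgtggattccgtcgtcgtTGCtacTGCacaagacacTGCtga
ATTI7: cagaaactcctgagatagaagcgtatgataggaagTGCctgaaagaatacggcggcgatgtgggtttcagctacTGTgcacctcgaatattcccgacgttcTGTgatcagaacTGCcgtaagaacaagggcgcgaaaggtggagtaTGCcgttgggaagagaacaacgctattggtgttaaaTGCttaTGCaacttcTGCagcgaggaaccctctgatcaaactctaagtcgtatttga
ATTI3: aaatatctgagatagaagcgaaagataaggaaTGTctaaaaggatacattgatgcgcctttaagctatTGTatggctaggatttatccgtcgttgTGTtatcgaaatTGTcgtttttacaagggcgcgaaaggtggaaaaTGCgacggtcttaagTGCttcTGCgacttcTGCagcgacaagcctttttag
AT1G61688: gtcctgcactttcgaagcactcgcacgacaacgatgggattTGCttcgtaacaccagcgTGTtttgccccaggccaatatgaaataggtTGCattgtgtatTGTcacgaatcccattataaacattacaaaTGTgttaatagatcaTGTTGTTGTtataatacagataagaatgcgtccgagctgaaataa
In each of the 6, 8 codons are marked. The 3 plant defensins have the same length here, 170 bases, and their marked codons stand in the same order and at the same spacing. Over the whole coding sequence PDF2.2 was 88.0% identical to PDF2.1 and 86.3% to PDF2.3. ATTI7 was 63.7% identical to ATTI3 and 75.2% to ATTI4. The spacing was common in the family. Of the 142 members with a coding model, 127 (89.4%) held the defensin pair and the later pair. Of the other 4329 genes of at most 150 codons, 3.77% held both. The members were chosen by descriptions that name such proteins, so the contrast describes them and tests nothing. The other genes may still include family genes without a count. The members had a median of 81 codons (70 to 139) and a median of 8 cysteine codons. Cysteine made up 10.4 of every 100 codons in the median member and 1.68 in the median of all 27444 coding genes. Only AT1G13608, with 4, and AT4G14272, with 5, had fewer than 6 cysteine codons. The coding sequence was split over 2 exons in 97.2% of members and in 28.7% of the other short genes. The median number of cysteine codons was 8 in the members higher in mee45, 8 in those lower and 8 in those not called, and the median coding length was 89.5 codons in the higher members, 80 in the lower members and 81 in those not called. The defensin spacing stood in 17 of the 20 higher members, in 19 of the 20 lower members with a model, and in 91 of those not called.

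The family was active in both genotypes at very uneven levels. The values are FPKM, fragment counts divided by transcript length and library size, and each is the authors' mean over the libraries of a genotype, so that levels can be compared between genes but no spread between libraries can be given. Summed over the 143 members, they came to 3260 FPKM in mee45 and 3676 FPKM in Col-0, or 0.142% of all counts in mee45 and 0.164% in Col-0. In mee45, 8 members reached 100 FPKM, 34 lay between 10 and 100, 44 between 1 and 10, and 57 under 1. In Col-0 the numbers were 9, 30, 46 and 58. The 10 strongest members of each genotype made up 62.6% of the sum in mee45 and 66.8% in Col-0. PDF2.2, a plant defensin, alone gave 11.8% of the sum in mee45 and 22.4% in Col-0. Without it the sums were 2876 FPKM in mee45 and 2854 FPKM in Col-0, so the lower total in mee45 rested on this gene. The median member had 2.46 FPKM in mee45 and 1.45 FPKM in Col-0, below the median of all genes with a count, 8.47 FPKM in mee45 and 8.71 FPKM in Col-0.

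A call here is an adjusted p under 0.05 in the authors' deposited table. By it, 20 of the 143 members (14.0%) were higher in mee45, where 6.67% of all genes tested were, and 21 (14.7%) were lower, where 9.15% of all genes were. Together 41 members (28.7%) were called, against 15.8% of all genes, and 102 were not. The authors' own mark of significance in that table was not used for the calls. Of the 41, only the 22 with a change of at least 2-fold carry that mark, 8 higher and 14 lower. The rest lack it, among them LCR60 (log2 fold change 0.83) and LCR84 (-0.96). Of the 76 members with a mean of at least 10 counts per library over both genotypes, 20 (26.3%) were higher, against 7.89% of the 20720 genes at that depth, and 18 (23.7%) were lower, against 10.7%. The 67 members under that depth held the other 3 calls, all lower. In both directions the share of members lay above that of all genes, and no test of that difference was made. Changes of at least 2-fold were found in 8 higher members, where 1.93% of all genes were so called, and in 14 lower members, where 4.42% were, 22 in all against a background of 6.35% of genes. The median size of the log2 fold change was 0.83 among the higher members (0.39 to 1.80) and 1.099 among the lower members (0.35 to 4.04). In siliques, fewer cells of a type and less RNA per cell cannot be told apart.

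**Figure D1:**
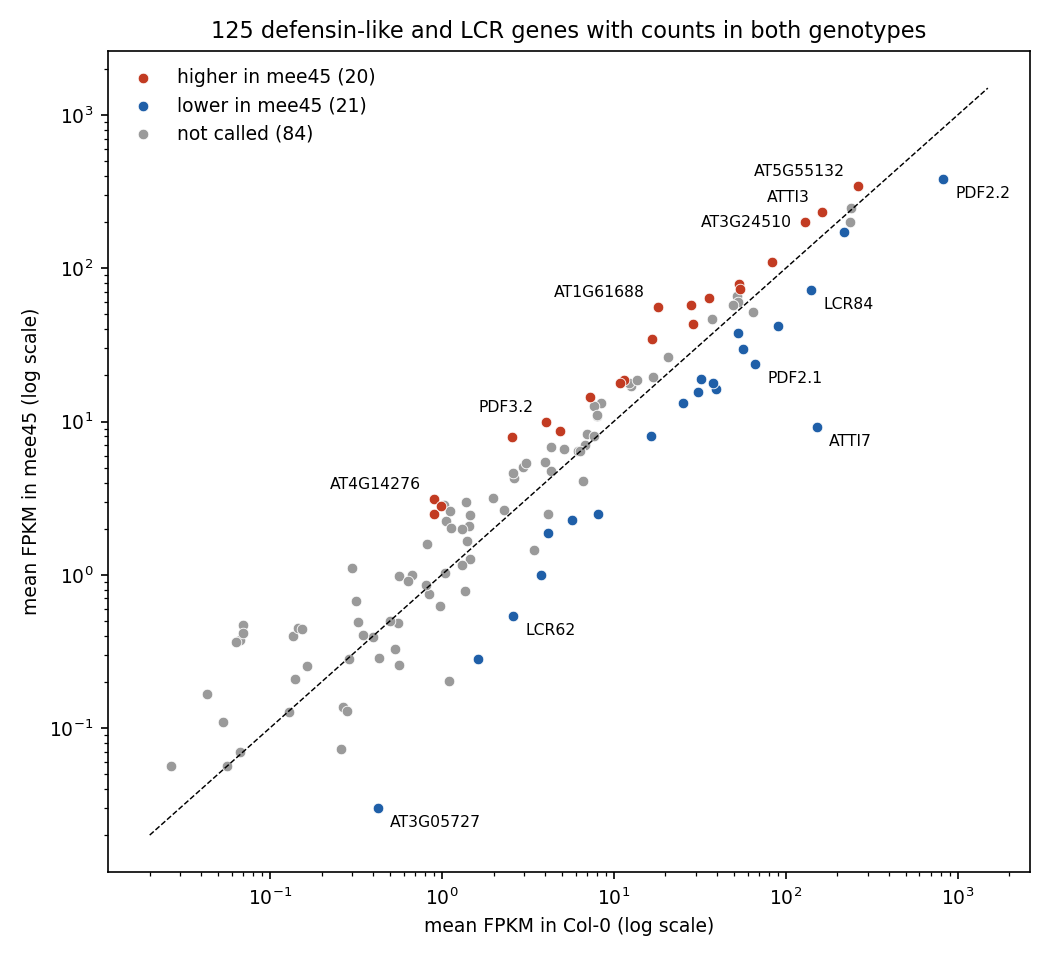
Mean level of each member in mee45 (vertical axis, FPKM, log scale) against Col-0 (horizontal axis, FPKM, log scale), for the 125 members with counts in both genotypes. Each point is a gene, and the dashed line marks equal levels. PDF2.2, at 384 FPKM in mee45 and 822 FPKM in Col-0, and ATTI7, at 9.19 FPKM in mee45 and 151 FPKM in Col-0, lie below the line.

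Beneath the calls, the members leaned upward. At a mean of at least 10 counts, their median log2 fold change was 0.38 (quartiles -0.54 and 0.71), while that of all genes at that depth was 0.0041 (quartiles -0.18 and 0.18). Of the 38 members at that depth that were not called, 33 had a log2 fold change above 0 and 5 below. The strong fall of a few abundant genes stood against this. The called higher members summed to 1379 FPKM in mee45 and 917 FPKM in Col-0. The called lower members summed to 869 FPKM in mee45 and 1807 FPKM in Col-0. The median values of the subfamilies differed in size: 0.39 over 48 DEFL members, 0.45 over 19 members named LCR, 0.19 over 5 plant defensins and -0.08 over the 4 trypsin inhibitors, at the same depth.

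The plant defensins (PDF) are the best known antifungal branch. RefSeq's note lists 15 PDF genes, and 7 of them had a count. PDF1.2a, PDF1.2b and PDF1.2c, which jasmonate and ethylene induce together in infected leaves, were at 0 in both genotypes, as were PDF1.1, PDF1.3, PDF1.5, PDF2.4 and PDF2.5. PDF2.2 was the strongest member in each genotype and fell to 384 FPKM in mee45, against 822 FPKM in Col-0. The log2 fold change was -1.099 and the authors' deposited table gives it an adjusted p of 2.00e-08. Counts at equal depth put mee45 at 47.2% of Col-0 (95% counting interval 46.1 to 48.2). PDF2.1, its neighbour, had 23.6 FPKM in mee45 and 66.2 FPKM in Col-0, a log2 fold change of -1.49 (adjusted p 1.85e-06, from the authors' deposited table). Its coding sequence is 88.0% identical to that of the far stronger PDF2.2, and whether the counting fully separates their reads was not tested. PDF2.3, the next member along the chromosome and a known blocker of potassium channels, had 59.8 FPKM in mee45 and 52.5 FPKM in Col-0, and was not called (log2 fold change 0.19, adjusted p 0.465 in the authors' deposited table). PDF2.6 had 8.27 FPKM in mee45 and 6.98 FPKM in Col-0 and was not called. The 2 genes lower in mee45 and the 2 not called thus lay in 1 stretch of chromosome 2. PDF3.2, on chromosome 4, went the other way, with 9.89 FPKM in mee45 and 4.04 FPKM in Col-0 (log2 fold change 1.29, adjusted p 2.92e-05 in the authors' deposited table). PDF1.4, at 0.0733 FPKM in mee45 and 0.26 FPKM in Col-0, and PDF3.1, at 0.167 FPKM in mee45 and 0.0433 FPKM in Col-0, were barely detected.

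The Arabidopsis trypsin inhibitors (ATTI) block a digestive enzyme of insects and other animals. ATTI7 showed the largest fold difference of any called member. It had 9.19 FPKM in mee45 and 151 FPKM in Col-0, 16.5 times lower (adjusted p 2.04e-11, from the authors' deposited table). The counts behind it, 274 in the mee45 libraries together and 4379 in the Col-0 libraries together, put mee45 at 6.17% of Col-0 at equal depth (95% counting interval 5.44 to 6.97). It was not among the 10 strongest members in mee45 and was among them in Col-0. ATTI3 rose, with 232 FPKM in mee45 and 163 FPKM in Col-0 (log2 fold change 0.51, adjusted p 0.00394 in the authors' deposited table). ATTI4, whose coding sequence is closer to that of ATTI7, had 37.8 FPKM in mee45 and 53.1 FPKM in Col-0 (log2 fold change -0.49, adjusted p 0.00477 in the authors' deposited table). ATTI6 had 47.0 FPKM in mee45 and 37.2 FPKM in Col-0 and was not called. The related ATTI1 and ATTI2, whose description lacks the words of the rule, were looked up after these values were seen. ATTI1, at 4.95 FPKM in mee45 and 6.74 FPKM in Col-0, was not called. ATTI2 fell to 1.92 FPKM in mee45, against 12.2 FPKM in Col-0 (log2 fold change -2.66, adjusted p 6.31e-05 in the authors' deposited table).

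The DEFL genes without an LCR, PDF or ATTI name were the largest group, 86 members, of which 14 were higher in mee45, 11 lower and 61 not called. For comparison, 6.67% of all genes tested were called higher and 9.15% lower, and no test against these shares was made. AT1G61688 (DEFL 106) had the lowest adjusted p of all members in the authors' deposited table, 4.26e-15. It stood at 55.9 FPKM in mee45 and 18.0 FPKM in Col-0, a log2 fold change of 1.63, or 313% of the Col-0 counts at equal depth (95% counting interval 281 to 349). The strongest DEFL gene, AT5G55132 (DEFL 85), rose less, with 345 FPKM in mee45 and 262 FPKM in Col-0 (log2 fold change 0.39, adjusted p 0.0291 in the authors' deposited table). AT3G24510 (DEFL 259) had 199 FPKM in mee45 and 129 FPKM in Col-0 (log2 fold change 0.63, adjusted p 3.24e-06 in the authors' deposited table). AT1G24062 had 57.5 FPKM in mee45 and 28.0 FPKM in Col-0, and AT2G20465 (DEFL 103) had 34.8 FPKM in mee45 and 16.8 FPKM in Col-0. Their log2 fold changes, 1.04 for AT1G24062 and 1.05 for AT2G20465, were alike. The other DEFL genes that rose had log2 fold changes of 1.80 for AT4G14276, 1.46 for AT1G69818, 0.99 for AT2G04046, 0.82 for AT3G10195, 0.72 for AT5G54220, 0.69 for AT5G32619, 0.58 for AT2G24693, 0.56 for AT2G04925 and 0.40 for AT1G13605. Of these, AT1G13605 was the strongest, with 110 FPKM in mee45 and 83.5 FPKM in Col-0. AT4G14276, the largest in fold, was weak, with 3.11 FPKM in mee45 and 0.897 FPKM in Col-0.

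Among the DEFL genes that fell, AT5G42235 (DEFL 116) was the most abundant and changed least, with 172 FPKM in mee45 and 220 FPKM in Col-0 (log2 fold change -0.35, adjusted p 0.0218 in the authors' deposited table). AT3G16895 (DEFL 47) had 42.3 FPKM in mee45 and 90.1 FPKM in Col-0, a log2 fold change of -1.09 (adjusted p 1.73e-06, from the authors' deposited table). AT3G17155 (DEFL 46), of the adjacent number, stood at 17.9 FPKM in mee45 and 38.0 FPKM in Col-0, a log2 fold change of -1.08. Both fell by nearly the same factor, 2.13 times lower for AT3G16895 and 2.12 times lower for AT3G17155. The remaining DEFL genes that fell had log2 fold changes of -1.35 for AT3G27835, -1.16 for AT1G47317, -0.99 for AT5G19175, -0.95 for AT5G40155, -0.94 for AT1G13607 and -0.75 for AT5G19172. XLOC_003248, which the deposited description gives as a putative pseudogene related to DEFL 123 and for which no reference model was matched, had 0.997 FPKM in mee45 and 3.77 FPKM in Col-0 (log2 fold change -1.92). AT3G05727 (DEFL 204) had 1 count in all in mee45 and 13 in Col-0. Its ratio at equal depth was 7.58% with a 95% counting interval of 0.178 to 50.5, and so rests on very few reads. AT5G44973 (DEFL 285), among the strongest members, had 246 FPKM in mee45 and 240 FPKM in Col-0, 103% of the Col-0 counts at equal depth (95% counting interval 98.8 to 106), and was not called.

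The genes named LCR, first described by their likeness to pollen coat proteins of Brassica, counted 46 members, of which 4 were higher in mee45, 6 lower and 36 not called. Among all genes tested, 6.67% were called higher and 9.15% lower, and the difference from these shares was not tested. LCR60 rose to 63.9 FPKM in mee45, against 36.0 FPKM in Col-0 (log2 fold change 0.83, adjusted p 7.29e-09 in the authors' deposited table). LCR24 had 73.6 FPKM in mee45 and 54.0 FPKM in Col-0 (log2 fold change 0.45). LCR76 had 7.87 FPKM in mee45 and 2.54 FPKM in Col-0 (log2 fold change 1.63), and LCR19 had 2.81 FPKM in mee45 and 0.993 FPKM in Col-0 (log2 fold change 1.502). LCR76 and LCR19, the weaker of the 4, had the larger folds. LCR84 was the most abundant LCR gene that fell, with 71.8 FPKM in mee45 and 140 FPKM in Col-0 (log2 fold change -0.96, adjusted p 4.34e-08 in the authors' deposited table). LCR49 had 16.3 FPKM in mee45 and 39.2 FPKM in Col-0 (log2 fold change -1.27). Its coding sequence is a near copy of that of LCR48, 92.2% identical, so that reads could be split between them. Of 8 members with such a near copy in the genome, it was the only one called. LCR48 itself had 201 FPKM in mee45 and 237 FPKM in Col-0 and was not called (adjusted p 0.270 in the authors' deposited table). LCR57 had 8.07 FPKM in mee45 and 16.5 FPKM in Col-0, and LCR27 had 2.50 FPKM in mee45 and 8.13 FPKM in Col-0. LCR62, with 8 counts in all in mee45 and 37 in Col-0, and LCR16, with 5 in mee45 and 27 in Col-0, had few reads.

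**Figure D2:**
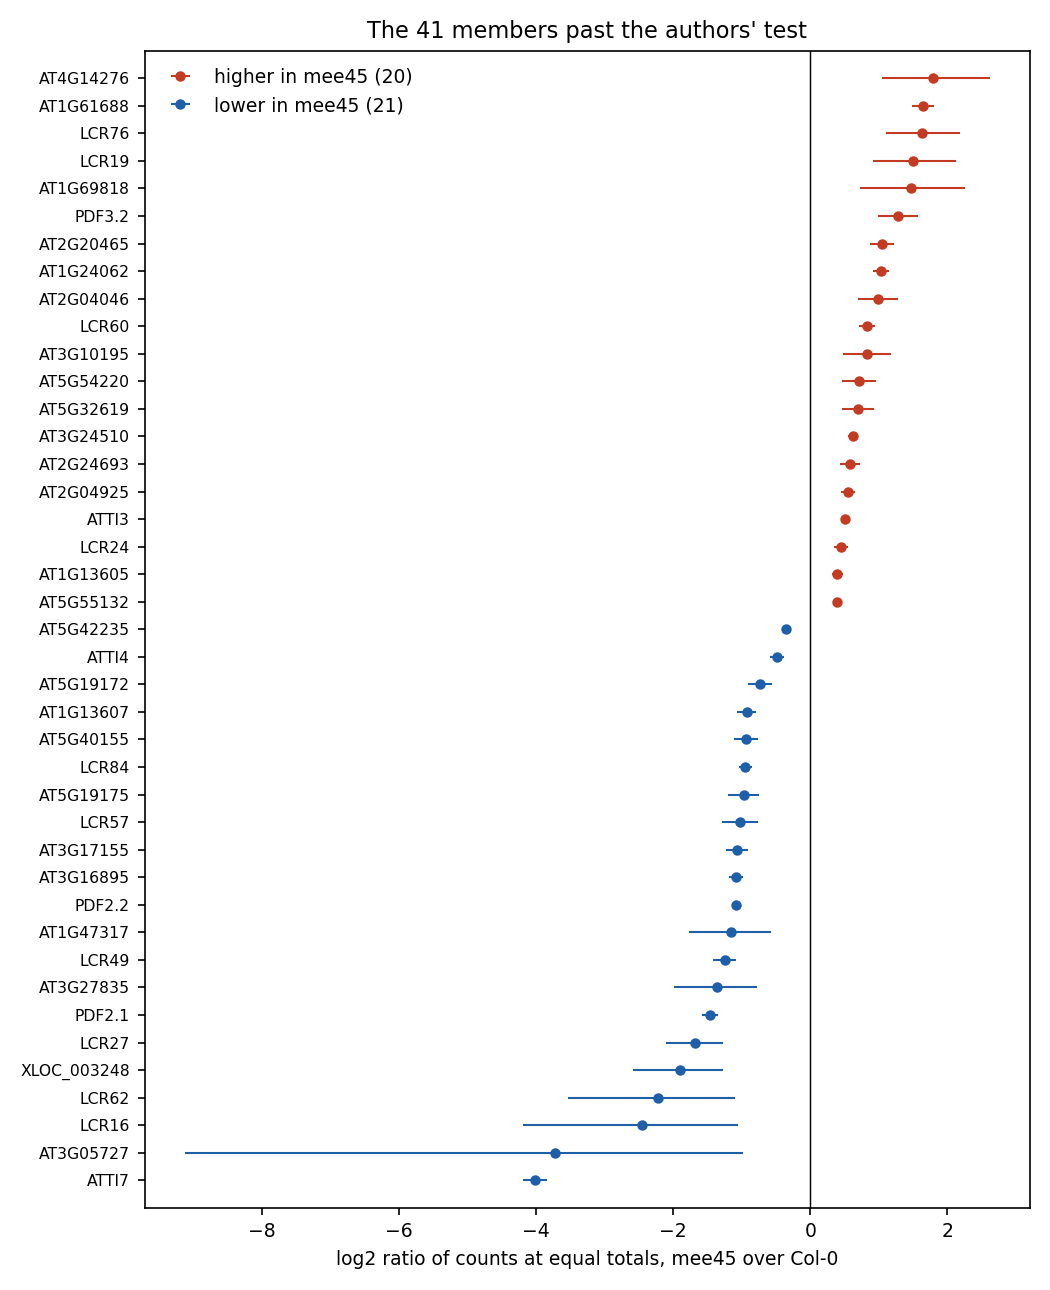
The log2 ratio of counts at equal total counts, mee45 over Col-0, for the 41 called members, ordered by size. Bars are exact 95% counting intervals, which do not hold the spread between libraries. ATTI7 has both the lowest ratio and a narrow bar, while that of AT3G05727, with 1 count in mee45 and 13 in Col-0, spans most of the axis.

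Of the 102 members not called, 64 had a mean under 10 counts per library, the depth at which 3 of 67 members were called. The median mean count was 3.83 over the 102 and 208.5 over the called members. The 5 that came nearest to a call were AT1G13609 (DEFL 287), ATTI6, LCR45, LCR64 and AT1G13755 (DEFL 260). AT1G13609 had 66.2 FPKM in mee45 and 52.1 FPKM in Col-0 (adjusted p 0.0622 in the authors' deposited table), and LCR45 had 12.5 FPKM in mee45 and 7.67 FPKM in Col-0. LCR64 had 2.98 FPKM in mee45 and 1.39 FPKM in Col-0, and AT1G13755 had 51.7 FPKM in mee45 and 64.3 FPKM in Col-0. In all, 18 members were at 0 in one genotype, 6 in mee45 and 12 in Col-0. In 16 of them the other genotype held at most 3 counts over its libraries. The exceptions were AT4G22212 (DEFL 98), with 5 counts in mee45 and 0 in Col-0, and LCR3, with 4 in mee45 and 0 in Col-0. Set against a floor of 3 counts over the group, the folds were 1.64 for AT4G22212 and 1.31 for LCR3. They are not lower bounds. The counting intervals of the ratio, mee45 over Col-0 at equal depth, reached down to 0.903 for AT4G22212 and 0.651 for LCR3. Both intervals thus included equal levels, and neither gene was called.

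Many members lie beside each other in the genome, as tandem copies do. Joining members with gaps of at most 10 kb, a distance chosen after their positions were seen, gave 24 clusters with 64 members and left 78 single. Of the 7 with at least 2 calls, 3 held calls in both directions, 3 held only lower calls and 1 held only higher calls. On chromosome 1, AT1G13605 (DEFL 268) rose, with a log2 fold change of 0.40, and AT1G13607 (DEFL 286) fell, to 29.7 FPKM in mee45 against 56.7 FPKM in Col-0. Their coding sequences are 42.9% identical. On chromosome 2, at chr2:18070110-18073651, ATTI3 rose and its neighbour ATTI4 fell, at 63.9% identity. On chromosome 4, LCR24 rose and LCR27 fell, at 53.3% identity. The clusters with only lower calls held PDF2.2 with PDF2.1, AT5G19172 with AT5G19175, and AT5G42235 with LCR57. AT5G19172 and AT5G19175, both given as DEFL 49 and 85.9% identical, had 19.0 and 15.6 FPKM in mee45 and 32.0 and 30.9 FPKM in Col-0. Their folds are alike, and the counting may not fully separate such close copies. PDF3.2 and LCR19, 65.1% identical and next to each other on chromosome 4, both rose. A limit of 5 kb gave 23 clusters and one of 20 kb gave 25, each again with 3 that held calls in both directions.

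**Figure D3:**
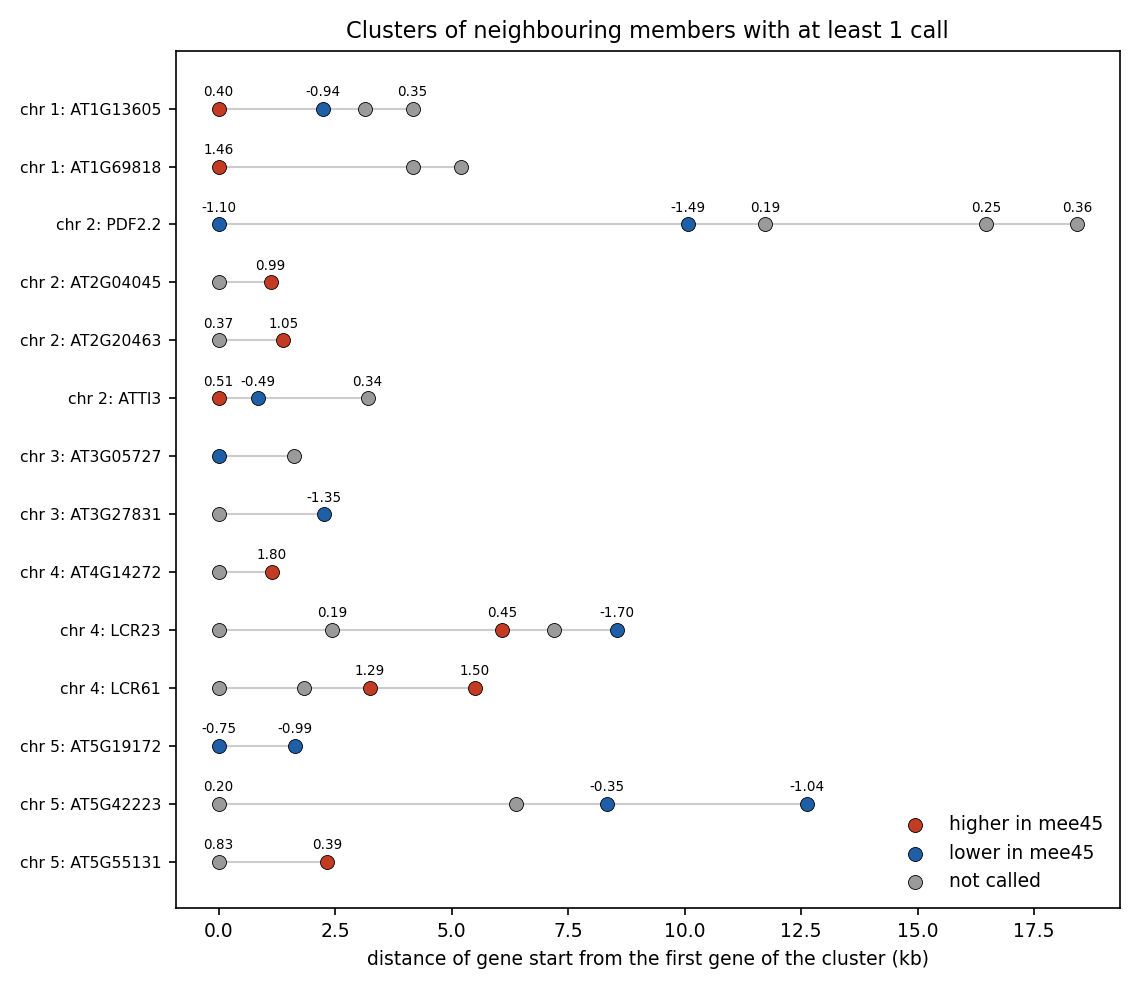
Positions of members within the 14 clusters that hold at least 1 call, as distance in kb of each gene's start from the first gene, with the log2 fold change, mee45 over Col-0, printed above members with at least 10 mean counts. Colours mark genes higher or lower in mee45 and genes not called. Neighbours that moved in opposite directions stand in the clusters that begin with AT1G13605, ATTI3 and LCR23.

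Some members share their place with a gene on the opposite strand, and the sources used here do not state whether strand was used in counting. This held for 15 members, 5 of them called. LCR76 rose while AT2G31955 opposite to it fell, with 323 counts per library in mee45 and 447 in Col-0. The partners of LCR60 (AT2G20210, 161 counts in mee45 and 163 in Col-0), AT1G69818 (AT1G69820, 69 in mee45 and 47 in Col-0), AT5G40155 and LCR57 were not called. The antisense share in these 5 members was not tested.

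The promoters of the members were searched for the letters of 3 known binding motifs, in a window of 250 bases before to 50 bases after the annotated start, on both strands. The W-box, searched here only as TTGACC, is bound by WRKY factors, the family of plant defence regulators. It stood in 35 of 142 member promoters (24.6%) and in 14.2% of all 27443 promoters. Its share was uneven among the members: 11 of 20 (55.0%) of those higher in mee45, 3 of 20 (15.0%) of those lower, 14 of 38 (36.8%) of those not called with at least 10 counts, and 7 of 64 (10.9%) of those not called with fewer. Of all genes higher in mee45, 249 of 1664 (15.0%) held it, and of all lower genes 352 of 2268 (15.5%). Other short genes with at least 10 counts held it in 284 of 1888 (15.0%). The shorter core TTGAC, which every W-box contains, was added after these values were seen. It stood in 17 of the 20 higher members, in 11 of the 20 lower members and in 50.5% of all promoters. Of the members not called, 25 of 38 (65.8%) with at least 10 counts held the core, and 34 of 64 (53.1%) with fewer. The letters GTAACNT, bound by MYB98, stood in 24 member promoters (16.9%) and in 12.9% of all. Called members with them were AT1G69818 and PDF3.2, which were higher, and PDF2.2 and PDF2.1, which were lower. The GCC-box GCCGCC, bound by ethylene response factors, stood in 0 of 142 member promoters and in 2.57% of all. These are counts of letters and not of bound sites, and no test of the shares was made.

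The W-box stretches of 4 higher and the 3 lower members let their surroundings be compared, each 60 bases, 5′ to 3′ on the gene's strand in TAIR10.1, with the W-box letters, or their reverse complement, in capitals.
AT1G61688 (chr1:22781508-22781567, minus strand): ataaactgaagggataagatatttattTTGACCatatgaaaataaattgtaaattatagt
AT1G24062 (chr1:8511082-8511141, minus strand): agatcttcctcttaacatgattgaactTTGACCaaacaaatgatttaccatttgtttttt
PDF3.2 (chr4:14697334-14697393, plus strand): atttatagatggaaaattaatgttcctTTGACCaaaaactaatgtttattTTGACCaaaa
LCR60 (chr2:8720674-8720733, plus strand): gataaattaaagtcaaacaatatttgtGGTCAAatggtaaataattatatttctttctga
AT3G16895 (chr3:5771735-5771794, minus strand): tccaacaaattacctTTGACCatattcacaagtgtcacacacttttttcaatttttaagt
AT3G17155 (chr3:5850530-5850589, plus strand): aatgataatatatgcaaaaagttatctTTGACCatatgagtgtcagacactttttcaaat
LCR27 (chr4:14434715-14434774, minus strand): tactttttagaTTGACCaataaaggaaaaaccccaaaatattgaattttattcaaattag
PDF3.2 holds the letters at 2 places, 128 and 105 bases before the start. So do AT1G24062, at 147 and 110 bases, and AT3G24510, at 152 and 28 bases. The stretch printed for AT1G24062 does not reach its site at 110 bases. In the 11 higher members the letters began 28 to 168 bases before the start, and in the 3 lower members 187 to 239 bases before it. The positions in other promoters were not compared, so nothing is read from these ranges. AT3G16895 and AT3G17155, which fell by almost the same factor, are both among these 3, and they are related copies, 81.3% identical in coding sequence.

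**Figure D4:**
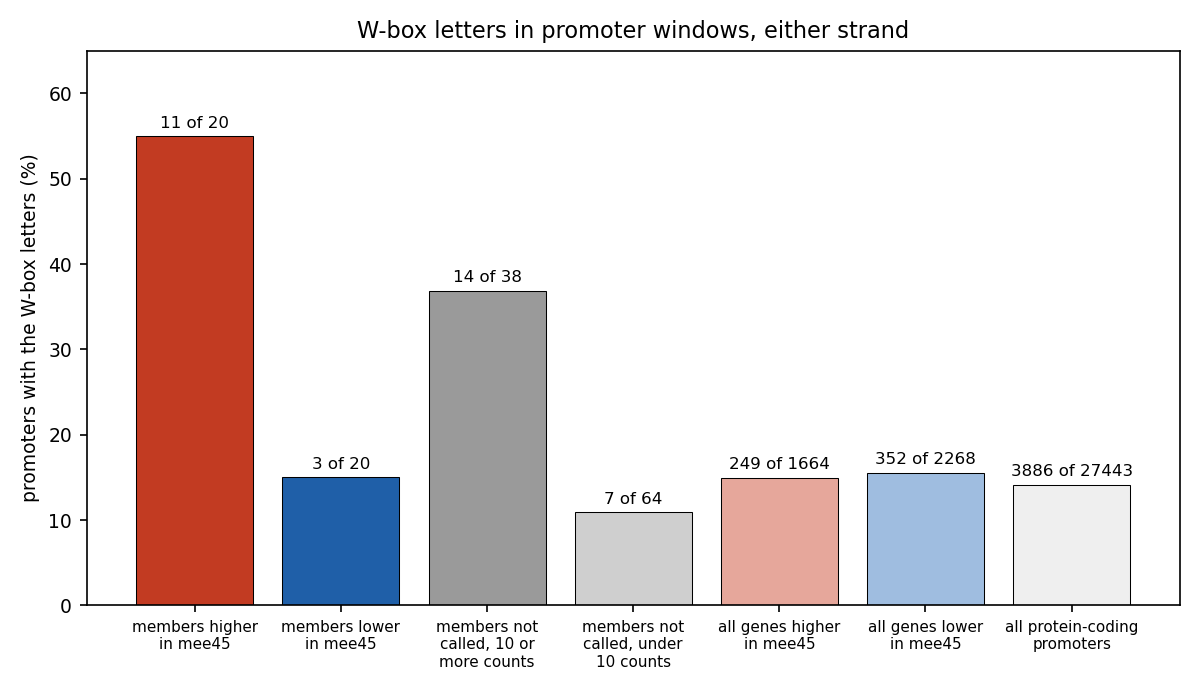
Share of promoter windows that hold the W-box letters on either strand (vertical axis, %), for the members by call and for all genes by call, with the counts above the bars. The bar of members higher in mee45 stands at 55.0%, above the 36.8% of members not called with at least 10 counts and the 14.2% of all protein-coding promoters.

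Genes with a known tie to these peptides and markers of tissues were followed in 9 lists of 53 genes. The list for jasmonate and ethylene control of PDF1.2, in either direction, holds genes of defence proteins as well as regulators. It had 2 higher genes, both of defence proteins, 1 lower gene and 5 genes not called. The log2 fold changes of those not called were -1.44 for ERF1, -0.88 for ORA59, 0.06 for COI1, 0.13 for VSP2 and 0.39 for CHIB. THI2.1, a jasmonate-induced antimicrobial thionin and like the defensins a small cysteine-rich protein, rose to 678 FPKM in mee45, against 332 FPKM in Col-0 (log2 fold change 1.03, adjusted p 6.37e-08 in the authors' deposited table). PR4, a chitin-binding defence protein, had 23.8 FPKM in mee45 and 14.6 FPKM in Col-0 (log2 fold change 0.71). MYC2, a central transcription factor of jasmonate signalling, fell to 62.5 FPKM in mee45, against 161 FPKM in Col-0 (log2 fold change -1.37, adjusted p 2.23e-15 in the authors' deposited table). The EC1 genes, cysteine-rich peptides that the egg cell releases to sperm, summed to 2.53 FPKM in mee45 and 1.85 FPKM in Col-0. EC1.3 was called lower, with 1 count per library in mee45 and 6 in Col-0. MYB98 had 1.72 counts per library in mee45 and 1.04 in Col-0. The LURE1 genes, looked up after values were seen, had at most 1.33 counts per library. The embryo surrounding factors, peptides of the central cell and endosperm, had no call, with ESF1.3 at 15.1 FPKM in mee45 and 11.7 FPKM in Col-0 and ESF1.1 at 0 in both. The 7 genes of pollen tube reception and guidance held no call and summed to 100 FPKM in mee45 and 103 FPKM in Col-0, nearly all of it FER, a receptor kinase at 91.4 FPKM in mee45 and 96.5 FPKM in Col-0. PRK6, a pollen tube receptor, had the smallest p of this list, with 11.7 counts per library in mee45 and 5.33 in Col-0.

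Markers of the tissues in a silique moved with the genotypes as well. All 6 embryo genes were lower in mee45, summing to 66.9 FPKM in mee45 and 118.5 FPKM in Col-0, with log2 fold changes from -1.99 for ABI3, a regulator of seed maturation, to -0.48 for WOX9. Of the central cell and endosperm genes, AGL62, which delays endosperm cellularisation (log2 fold change 1.01), and the imprinted gene FWA (0.38) were higher, ZOU, needed for endosperm breakdown (-0.93), and ALE1 (-0.82) were lower and 4 were not called, for a sum of 60.5 FPKM in mee45 and 70.8 FPKM in Col-0. Of the seed coat genes, the flavonoid transporter gene TT12 (0.95) was higher, the laccase gene TT10 (-1.61) and the mucilage gene MUM4 (-1.16) were lower and 2 were not called, with 790 FPKM in mee45 and 917 FPKM in Col-0. Of the pollen and sperm genes only VEX1 was called, lower with a log2 fold change of -1.998, and the sums were 157 FPKM in mee45 and 112 FPKM in Col-0. Of the silique wall genes, IND (0.69) and SHP1 (0.40) were higher, SHP2 (-0.33) was lower and 1 was not called, at 330 FPKM in mee45 and 324 FPKM in Col-0. No marker of these 5 lists was at 0 in either genotype. Their part in the differences of the defensin-like genes was not tested.

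**Figure D5:**
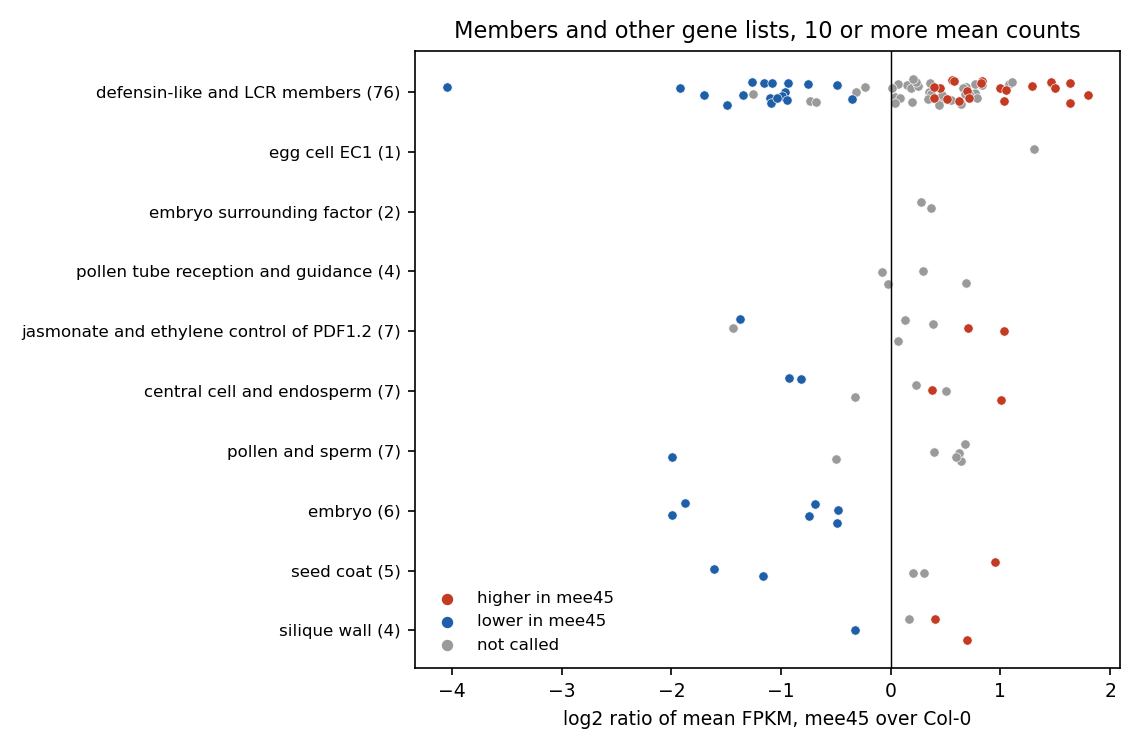
Log2 fold change of mee45 over Col-0 from mean FPKM (horizontal axis), for the 76 members with at least 10 mean counts and for the genes at that depth of each list, with the number of genes in brackets. Points are genes, spread vertically only to be seen. The members spread to both sides of 0, from -4.04 for ATTI7 to 1.80 for AT4G14276, while the 6 embryo genes all lie below 0.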

How the data were processed

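Polyadenylated RNA was extracted with Trizol and sequenced in paired ends on an Illumina HiSeq4000, per the labels' protocols. The tools edgeR, RSEM, Cufflinks, TopHat2 2.0.3.12, Bowtie2 2.2.8 and fastp 0.18.0 and the build TAIR10 are listed in the submitters' processing notes, which give no roles. The deposited estimated counts and the deposited FPKM values are means that the authors took over the 3 libraries of each genotype, with 20530953 counts per library in mee45 and 20242476 in Col-0. Summed counts are 3 times those means and were whole numbers within 0.03 for all 143 members. The p-values and adjusted p-values are those of the authors' deposited table, and the adjusted ones equal a Benjamini-Hochberg adjustment over 25434 genes. Log2 fold changes are log2 ratios of the deposited mean FPKM, mee45 over Col-0, with no pseudocount, for genes above 0 in both genotypes. The planned quasi-likelihood test needs counts per library, so it was not run and no new p-value was made.

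Counting intervals are exact 95% binomial intervals at equal total counts. Reads are not independent molecules, so the intervals and the floor of 3 counts cover counting error only. Symbols, coordinates, coding exons and promoter windows are from RefSeq's TAIR10.1 annotation and genome, matched by locus, with blastn 2.17.0 for near copies (at least 90% identity over 80% of the sequence) and Biopython 1.88 for pairwise identity. Python 3.11.15, pandas 2.3.3, numpy 2.4.6 and scipy 1.17.1 were used, and the interval and call functions were tested on simulated data. Named were all called members, the 10 with the highest mean FPKM, the 5 not called with the smallest p, members at 0 in one genotype and above the floor in the other, and from each list the called genes or else the one with the smallest p. Some other list genes were named for contrast. The members and gene lists were chosen with earlier results of these data known.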

Additional observations from a re-analysis of the deposited data

How the results depend on the processing

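Of the members, 20 were higher and 21 lower at an adjusted p under 0.05. Under 0.01 the counts were 14 higher and 13 lower, with an unadjusted p under 0.05 they were 33 higher and 23 lower, and with a change of at least 2-fold they were 8 higher and 14 lower. The median log2 fold change of 0.38 kept its direction under the 5 other settings tried, between 0.36 and 0.38. These were scaling by the median ratio over genes (1.018) or by totals, added values of 1 and of 0.1 FPKM, and no minimum count. Of the 48 named members with a fold, all kept their direction under each of these scalings and added values. An added value of 1 FPKM moved LCR16 (-1.03), AT3G05727 (-0.47) and XLOC_003248 (-1.26) beyond their counting intervals, because their levels are low. The summed FPKM of the members, mee45 minus Col-0, was -416, and without PDF2.2, a setting added after seeing the data, it turned to 22.3. No paired analysis was possible because the deposited columns are genotype means and carry no replicate number. For the same reason the settings that leave out a library, use DESeq2's size factors or refit edgeR without a filter were not run. Depth limits the 67 members with a mean under 10 counts, and the spread between libraries is seen only through the authors' p-values.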
